A study of Mus musculus with 3 samples.

Results

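Classical monocytes of mouse blood were taken here as single leukocyte transcriptomes rich in Ccr2, Fn1, F13a1 and Vcan, and 755 of the 22204 deposited barcodes met the rule. A barcode had to show at least 200 genes and at most 10% mitochondrial RNA. The 4 genes had to reach 10 unique molecular identifiers (UMIs, each counting 1 captured RNA molecule) together and exceed the sum of Ace, Treml4, Adgre4 and Cd300e, which mark non-classical monocytes. Cells with more than 1 UMI of Cd209a, with S100a8 and S100a9 at 3% of UMIs or more, or with over 2 UMIs of Cd79a, Cd79b and Cd3e were left out, which removes most dendritic-like cells, neutrophils, B cells and T cells. The values of these genes therefore chose the cells and are given as a description.

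The study asked how prolonged sleep deprivation alters the transcriptome of circulating leukocytes. Blood was drawn from C57/BL6J mice in 3 groups, a control (Con, 0 h), 24 h of sleep deprivation (SD24h) and 48 h (SD48h), and red cells were lysed. Leukocytes of 3 mice per group were pooled into 1 droplet library with 3′ end counting, so the animals of a group cannot be separated. A sleep restriction condition named by the series was not analysed here. Barcodes end in 1, 2 or 3, and the labels do not say which group each ending holds. Every value is therefore given per ending, and no ending is read as control or as a time. With a single library per ending there is no replicate error and so no test between endings. All intervals have 95% confidence and cover counting error only and not the differences between mice or preparations.

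Classical monocytes are short-lived phagocytes that leave the bone marrow through the chemokine receptor encoded by Ccr2, circulate, and enter inflamed tissue, where they can become macrophages or dendritic-like cells. Part of them mature in blood into non-classical monocytes, which depend on Nr4a1 and patrol the vessel wall. Mouse classical monocytes have been described as arising from granulocyte-monocyte progenitors, with neutrophil-type granule genes, or from monocyte-dendritic progenitors, with genes of antigen presentation. The granulocyte-progenitor-linked and the dendritic-progenitor-linked gene lists used below hold genes tied to these origins.

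Endings 1, 2 and 3 held 176, 302 and 277 classical monocytes. The median cell had 9920, 11128.5 and 14351 UMIs and 2806, 3011.5 and 3479 genes, and the cells of an ending summed to 1827640, 3304024 and 4016954 UMIs. No cell barcode was shared between the classical monocytes of 2 endings, against 17 to 23 shared barcodes between the deposited libraries. The cells just inside the marker limit, with 10 or 11 UMIs of the 4 genes, numbered 14, and those just outside, with 8 or 9, numbered 28. At the S100 limit 14 cells lay between 2 and 3% and 13 between 3 and 4%. The neutrophil gene Retnlg had a median of 105 CPM (UMIs of a gene per 1000000 UMIs) in the former and 1102 CPM in the latter.

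The label was borne out by most cells and not by a few. Lyz2, the lysozyme of monocytes and macrophages that the rule did not use, stood at 36680, 37466 and 24625 CPM in endings 1, 2 and 3, and 744 of 755 cells had at least 20 of its UMIs. Lyz2 was thus similar in endings 1 and 2 and about 1.5-fold lower in ending 3 (ratio of ending 2 to 3 1.52, interval 1.51 to 1.53). Cells with 5 or more UMIs of Ace, Treml4, Adgre4 and Cd300e together numbered 9, 17 and 59 by ending. Their median Lyz2 was 16866 CPM, against 35104 CPM in the 436 cells with none. The part of such cells in the differences between endings was not tested. The 11 cells below 20 UMIs numbered 6, 1 and 4 by ending and held 4.16%, 0.183% and 0.561% of the UMIs. One of them, in ending 1, had 27299 UMIs with none of Ccr2, of the pan-leukocyte gene Ptprc or of Tyrobp, but 73 of Fn1. This cell held 1115 of the 1124 UMIs of 8 connective tissue genes in the ending 1 cells such as Ptn, Igfbp5, Dcn and Sparc. Killer cell RNA was also uneven: 4 cells each in endings 1 and 3 held 353 of 363 and 294 of 316 UMIs of Ccl5. Values with only the 744 cells, a limit chosen after the data were seen, are given wherever they differ by more than 1.5-fold.

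Markers of other cells differed in level. The red cell markers summed to 1872, 5367 and 998 CPM in endings 1, 2 and 3, and to 3209, 6923 and 6110 CPM in the B cells defined below. Of the 4 compared, 3 were called higher in ending 2 than in ending 1 and 4 lower in ending 3 than in ending 2. A single cell held 66.2%, 46.0% and 50.1% of the haemoglobin UMIs. Of 6 basophil and mast cell markers, 5, 4 and 5 were at 0 in endings 1, 2 and 3. Neutrophils here are barcodes with S100a8 and S100a9 at 3% of UMIs or more. They held under 10 UMIs of the 4 monocyte genes and at most 2 of Cd79a, Cd79b and Cd3e. The neutrophil markers summed to 1169, 1993 and 3980 CPM in classical monocytes and to 242, 1292 and 979 CPM in B cells. In neutrophils they summed to 145727, 291320 and 354962 CPM. The list includes S100a8 and S100a9, which helped choose all of these classes, so the gap to neutrophils was set in advance. Mmp8 and Wfdc21 of this list were called higher in endings 2 and 3 than in ending 1. Within the list, Camp and Stfa2 were at 0 in every ending, and Ngp had 0, 0 and 5 UMIs. Retnlg, one of the most abundant neutrophil RNAs, reached 41.6, 45.1 and 70.0 CPM, against 8.28, 54.5 and 85.1 CPM in B cells of the same libraries and 6808, 15628 and 32804 CPM in neutrophils. B cells here are barcodes with at least 5 UMIs of Cd79a and Cd79b and under 3 of the 4 monocyte genes. Their S100a8 and S100a9 had to stay under 3% of UMIs. B cells should lack myeloid RNA and so show free RNA of the droplets as a part of their own UMIs. The median B cell held 4019, 3855 and 3671.5 UMIs, fewer than the median classical monocyte. The CPM of free RNA in B cells therefore need not equal that in classical monocytes. The 8 platelet markers summed to 3253, 1137 and 1053 CPM in classical monocytes and to 3806, 1642 and 2025 CPM in B cells, so platelet RNA moved with the ending in both. Neutrophils made up 6.96%, 53.9% and 34.6% of filtered cells in endings 1, 2 and 3. The part of neutrophil, platelet, red cell and free RNA in the differences below was not tested.

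Classical monocytes made up 2.47% of filtered cells in ending 1 (176 of 7122, interval 2.12 to 2.86), 5.05% in ending 2 (302 of 5978, 4.51 to 5.64) and 4.79% in ending 3 (277 of 5785, 4.25 to 5.37). The share in ending 1 was below both others beyond counting error, and endings 2 and 3 overlapped. These shares depend on the mitochondrial limit, since B cells had median mitochondrial shares of 6.92%, 6.27% and 6.02%, against 3.51%, 3.45% and 3.75% in classical monocytes. With a limit of 5%, 1737, 4301 and 3450 cells remained and the classical share was 9.21%, 6.53% and 7.07%, which puts ending 1 highest. Non-classical monocytes, chosen by the mirrored rule, numbered 131, 24 and 124. There were 1.34 classical cells per non-classical cell in ending 1 (1.07 to 1.70), 12.6 in ending 2 (8.30 to 19.9) and 2.23 in ending 3 (1.80 to 2.78), and these 3 intervals did not overlap. The ratio moved with the marker limit: at 20 UMIs it was 4.61, 93.0 and 6.08, with 33, 3 and 40 non-classical cells left, and at 5 UMIs it was 1.28, 8.26 and 1.99. Ending 2 had the highest ratio under each of the 3 limits.

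**Figure D1:**
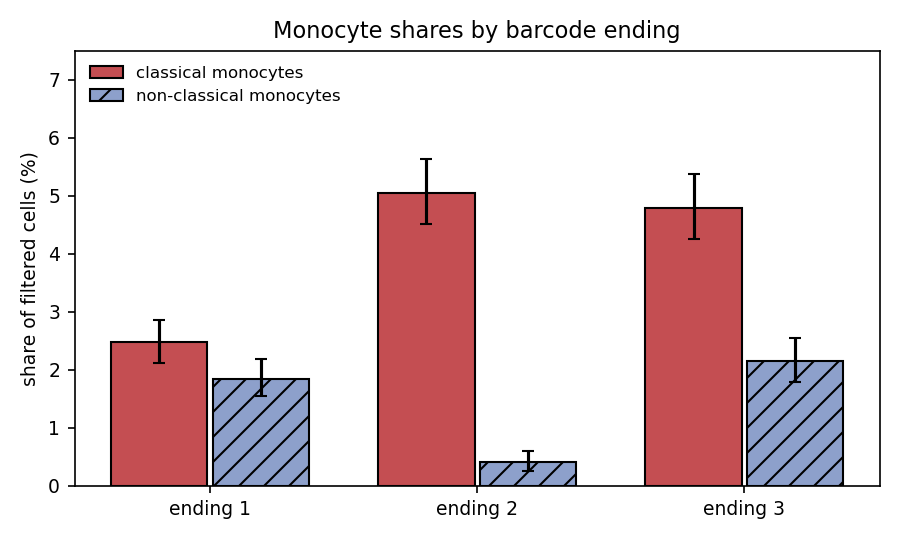
Share of filtered cells (%, y axis) that were classical (plain bars) or non-classical monocytes (hatched bars) in each barcode ending, with exact 95% binomial intervals as error bars. Non-classical monocytes were 0.401% in ending 2 while the classical share there was 5.05%.

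Among the genes of the rule, Ccr2, which guides exit from the marrow, stood at 1914, 2742 and 2095 CPM, Fn1 (fibronectin) at 1659, 1479 and 1428 CPM, and F13a1 (the A chain of coagulation factor XIII) at 969, 1303 and 867 CPM. None of these 3 genes reached a 2-fold difference between endings. Vcan, which encodes the matrix proteoglycan versican, differed more, at 87.0, 518 and 558 CPM. Cells with a Vcan UMI numbered 57 of 176, 249 of 302 and 223 of 277. With Vcan taken out of the rule, an alternative chosen after the data were seen, 175, 301 and 276 cells remained and Vcan stood at 85.9, 518 and 559 CPM. Ms4a6c, a surface gene of monocytes outside the rule, was even, at 1599, 2067 and 1724 CPM. The most abundant genes by mean CPM were Lyz2, Tmsb4x, Actb, Malat1, Tpt1, Fau, Ftl1, Chil3, Eef1a1 and Ifitm3. Of these 10, Chil3 alone differed by 2-fold or more between any 2 endings.

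A gene was compared between endings when its UMIs in classical monocytes summed to at least 50, which 8399 genes outside the rule did, and was called when its CPM differed at least 2-fold with an interval beyond 1. Against ending 1, ending 2 had 263 genes higher (3.13%) and 311 lower (3.7%), and ending 3 had 293 higher (3.49%) and 355 lower (4.23%). Between endings 3 and 2 the calls were fewer, with 103 genes higher in ending 3 (1.23%) and 82 lower (0.976%). The median log2 ratio of all compared genes, to 2 decimals, was 0.01 for endings 2 to 1, 0.00 for 3 to 1 and -0.01 for 3 to 2. Comparisons with ending 1 share its cells, so they are not independent of each other.

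Most compared neutrophil-type and acute-phase genes were lowest in ending 1. Of 9 compared genes of the granulocyte-progenitor-linked list, 7 were called higher in ending 2 than in ending 1 and 7 higher in ending 3 than in ending 1, with median log2 ratios of 2.61 and 3.14. The 7 genes were in both cases Chil3, Lcn2, Lrg1, Mmp8, Prtn3, Saa3 and Trem1. Of 8 compared acute-phase genes, 6 were called higher in ending 2 and 7 in ending 3, with median log2 ratios of 1.78 and 2.94, and 6 were also higher in ending 3 than in ending 2. Of all compared genes, 3.13% were higher in ending 2 and 3.49% in ending 3 than in ending 1, and 1.23% in ending 3 than in ending 2. A further 6 genes of each list had too few UMIs to be compared. Both lists were chosen with earlier results of these data known, so the counts are a description. Saa3, Lrg1 and Lcn2 belong to both lists.

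Saa3, which encodes an acute-phase serum amyloid A protein made by macrophages and other cells, had 0, 917 and 3554 UMIs, or 0, 278 and 885 CPM. It was found in 0 of 176, 92 of 302 and 165 of 277 cells. Ending 1 therefore lay apart from the other endings, at least 169-fold below ending 2 and at least 539-fold below ending 3 when its 0 UMIs are set at a floor of 3. Ending 3 was 3.19-fold above ending 2 (2.96 to 3.43). Neutrophils of the same libraries had 0, 10.1 and 9.63 CPM of Saa3 and B cells at most 2.78 CPM, so in endings 2 and 3 its level was higher in classical monocytes than in either class. Non-classical monocytes had 0, 0 and 240 CPM.

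Lcn2 encodes lipocalin-2, which withholds iron from bacteria by binding their siderophores. It stood at 17.5, 176 and 622 CPM, 10.1-fold higher in ending 2 than in ending 1 (7.06 to 14.9) and 35.5-fold higher in ending 3 than in ending 1 (25.1 to 52.0). Lrg1, an acute-phase leucine-rich glycoprotein, had 3, 266 and 1378 UMIs, or 1.64, 80.5 and 343 CPM. Its ratio to ending 1 was 49.0 (16.6 to 239) in ending 2 and 209 (71.4 to 1015) in ending 3. Non-classical monocytes had 1.20, 120 and 13.9 CPM, so in ending 2 Lrg1 was not higher in the classical cells. Wfdc21, a small secreted protein with a WAP domain, stood at 2.74, 36.6 and 364 CPM, and ending 3 was 9.94-fold above ending 2 (8.25 to 12.1). All 3 genes are abundant in neutrophils, where Lcn2 stood at 977, 5886 and 7785 CPM, Lrg1 at 413, 2893 and 2153 CPM and Wfdc21 at 893, 4385 and 5500 CPM. In B cells Lcn2 reached at most 26.6 CPM and Lrg1 and Wfdc21 at most 23.8 CPM. B cells held fewer UMIs per cell, so a comparison of CPM does not give the free RNA per droplet. Wfdc21 stood at 36.6 CPM in ending 2 against 23.8 CPM in its B cells, and at 364 CPM in ending 3 against 19.4 CPM. The part of neutrophil RNA in these values was not tested.

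The promoters of Saa3 and Lcn2 are shown because these acute-phase genes differed together and belong to a class of genes known as targets of C/EBP factors. They cover 250 bases before to 50 bases after the gene start, from RefSeq on build GRCm38.p6, in the direction of the gene. Capitals mark matches to TTGCNNAA on either strand, a core of C/EBP motifs. Saa3 lies on the minus strand with its promoter at chr7:46715627-46715926, and Lcn2 on the minus strand at chr2:32387690-32387989.
Saa3: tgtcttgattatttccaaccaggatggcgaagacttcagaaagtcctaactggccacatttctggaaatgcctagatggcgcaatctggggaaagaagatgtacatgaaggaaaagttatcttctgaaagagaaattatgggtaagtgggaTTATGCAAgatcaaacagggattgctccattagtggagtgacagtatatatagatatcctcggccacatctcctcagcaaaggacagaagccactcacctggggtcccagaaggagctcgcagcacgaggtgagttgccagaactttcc
Lcn2: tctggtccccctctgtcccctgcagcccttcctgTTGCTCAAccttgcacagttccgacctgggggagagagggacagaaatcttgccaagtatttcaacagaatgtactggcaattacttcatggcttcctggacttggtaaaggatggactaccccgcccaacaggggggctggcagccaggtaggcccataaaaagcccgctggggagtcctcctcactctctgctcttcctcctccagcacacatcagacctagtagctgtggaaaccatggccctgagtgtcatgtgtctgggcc
Both hold 1 match, starting 99 bases before the gene start in Saa3 and 216 bases before it in Lcn2. The motif was in 3547 of 32851 promoters of this length (10.8%) and in 7 of 11 acute-phase genes with a promoter in the table. A match is only a description of the letters.

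Chil3, a secreted chitinase-like lectin and one of the most abundant RNAs of these cells, stood at 1362, 9475 and 7063 CPM. It was 6.96-fold higher in ending 2 than in ending 1 (6.68 to 7.25) and 5.19-fold higher in ending 3 than in ending 1 (4.98 to 5.41). After every cell was thinned to 3000 UMIs, the median cell held 2, 24 and 19 UMIs of Chil3, and the 90th percentile was 10, 66 and 47. Prtn3, the neutrophil protease proteinase 3, stood at 14.2, 69.3 and 179 CPM, against 1.36, 10.1 and 15.8 CPM in neutrophils and at most 0.348 CPM in B cells. Its level in classical monocytes was thus above that of neutrophils in every ending. Elane, encoding neutrophil elastase, had 0, 0 and 29 UMIs, all in 21 cells of ending 3, and Mpo had 2, 0 and 4. Mmp8, a collagenase, stood at 158, 401 and 498 CPM, and Hp, the haemoglobin-binding acute-phase protein haptoglobin, at 642, 1799.6 and 1863 CPM. Cd177 went the other way, at 155, 103 and 51.5 CPM, 3.00-fold lower in ending 3 than in ending 1 (2.50 to 3.61). Ly6c2, the surface antigen used to sort these cells, differed less, at 1272, 791 and 1138 CPM.

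**Figure D2:**
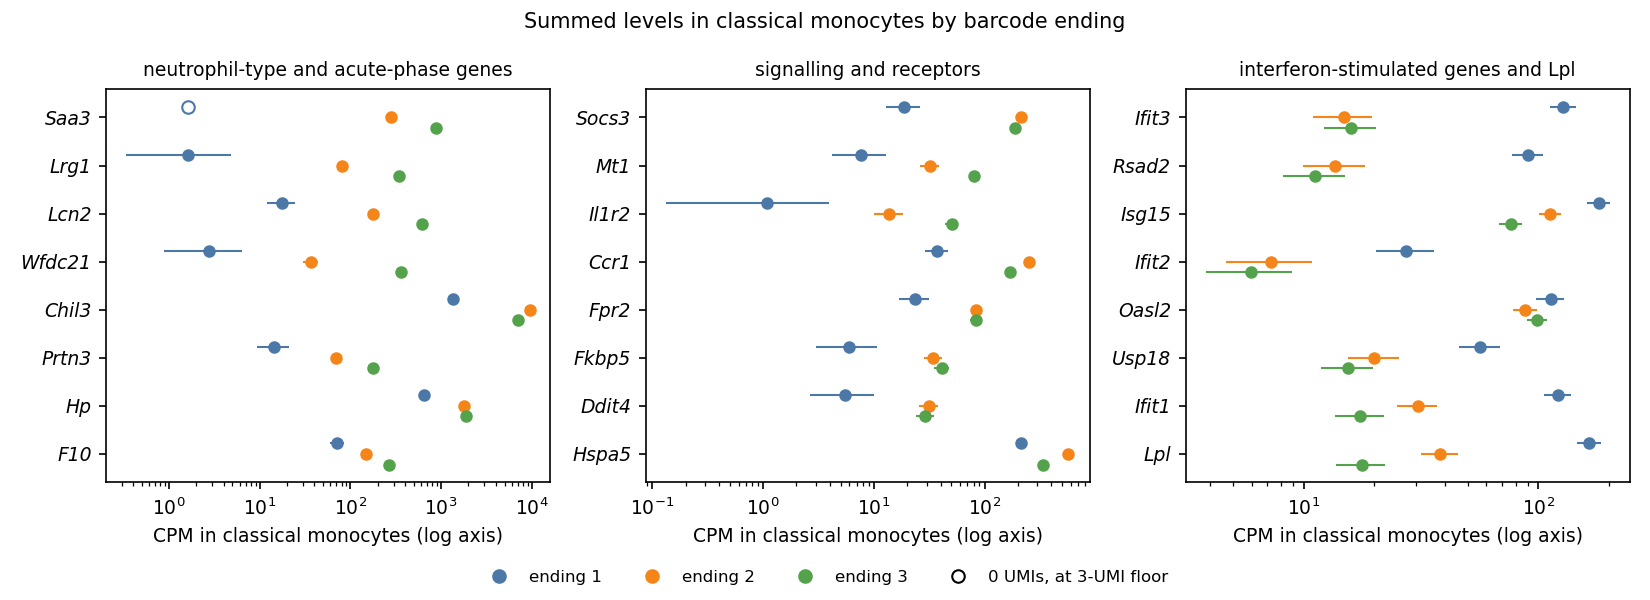
CPM in classical monocytes (x axis, log scale) for 8 genes per panel in endings 1 (blue), 2 (orange) and 3 (green), with exact 95% Poisson intervals. The open circle marks 0 UMIs drawn at the 3-UMI floor; Saa3, Lrg1, Lcn2 and Wfdc21 are ordered ending 1, 2, 3 from low to high, and Ifit3, Rsad2 and Lpl are highest in ending 1.

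Depth per cell differed between endings, so shares of cells with a UMI were also taken at equal depth. At 3000 UMIs per cell, 174, 290 and 275 cells could be used and 2, 12 and 2 shallower ones were left out. Saa3 was then found in 0%, 22.1% and 46.2% of cells, against 0.0509%, 0.0835% and 0.438% of B cells. The 0 of 174 cells in ending 1 has an exact upper limit of 2.10%. Lrg1 was found in 0%, 13.1% and 41.5% of cells, Lcn2 in 2.30%, 22.8% and 52.7%, Wfdc21 in 1.15%, 7.59% and 35.6%, and Prtn3 in 6.90%, 15.5% and 33.1%. Mmp8 was found in 33.9%, 47.2% and 53.5%, Hp in 75.3%, 96.2% and 93.5%, and Cd177 in 31.0%, 25.2% and 13.8%. Retnlg was found in 4.02%, 9.31% and 17.1% of classical monocytes against 1.12%, 14.6% and 21.4% of B cells. In endings 2 and 3 its share was thus below that of B cells. Before thinning, the median B cell there had 3855 and 3671.5 UMIs, against 11128.5 and 14351 in classical monocytes. Free RNA can therefore be a larger part of a B cell, and whether Retnlg exceeded it was not settled.

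**Figure D3:**
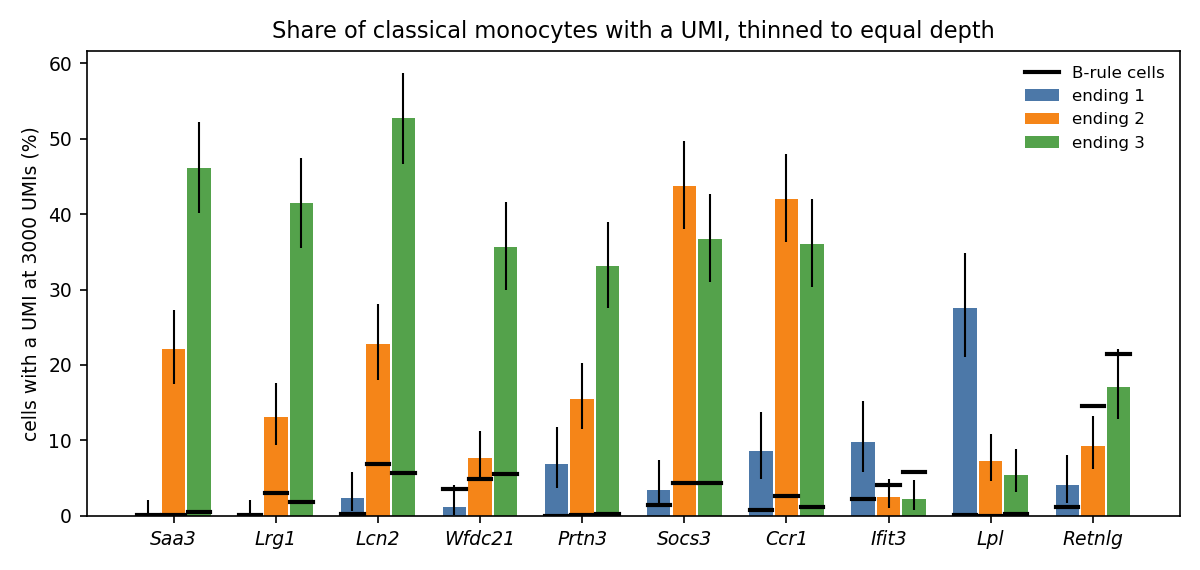
Share of classical monocytes with at least 1 UMI of a gene (%, y axis) after thinning every cell to 3000 UMIs, by ending, with exact 95% binomial intervals; black bars give the share of B cells of the same ending. In ending 3 Saa3 was found in 46.2% and Lcn2 in 52.7% of classical monocytes, while Retnlg stayed below its B cell share.

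Within ending 3 some of these genes varied together from cell to cell. Over its 275 thinned cells Spearman's rho was 0.50 for Chil3 with Lcn2, 0.41 for Chil3 with Saa3, 0.49 for Lcn2 with Wfdc21 and 0.33 for Saa3 with Lcn2. In ending 2 the same pairs had 0.10, 0.10, 0.12 and 0.10 over 290 cells. In ending 1, where Saa3 was at 0, Chil3 with Lcn2 had 0.04 and Lcn2 with Wfdc21 -0.02 over 174 cells. Lcn2 and Wfdc21 were found in few thinned cells of ending 1, so rho there could not show whether they varied together. Their shares were also lower in ending 2 than in ending 3, so the coefficients of different endings are not directly comparable. Prtn3 in ending 3 had 0.09 for Chil3, 0.07 for Saa3, 0.09 for Wfdc21 and 0.01 for Lrg1, and 0.28 for Lcn2. Chil3 ran against Cd74, whose product guides class II molecules to the endosome, with rho of -0.18, -0.34 and -0.36 in endings 1, 2 and 3. This was not particular to Chil3, since Lyz2 with Cd74 had -0.01, -0.18 and -0.33. Cd74 ran with Tmem176b at 0.31, 0.33 and 0.32. These coefficients describe cells that share a library and free RNA.

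Among the dendritic-progenitor-linked genes, Tmem176a, Tmem176b and H2-Ab1 were called higher in ending 2 than in ending 1, and Cd7 and Slamf7 lower. Tmem176b, a membrane protein of antigen-presenting cells, stood at 216, 706 and 260 CPM, 3.28-fold higher in ending 2 than in ending 1 (2.94 to 3.65) and 2.72-fold lower in ending 3 than in ending 2 (2.53 to 2.93). Its neighbour Tmem176a stood at 105, 428 and 187 CPM. Of 11 compared genes of the list, 3 were called higher and 2 lower in ending 2 than in ending 1, 0 were higher and 3 lower in ending 3 than in ending 1, and 0 were higher and 5 lower in ending 3 than in ending 2. Slamf7, a receptor of the SLAM family, was highest in ending 1, at 20.8, 4.84 and 1.49 CPM. Batf3, a factor of dendritic cell development, was at 39.4, 61.7 and 19.2 CPM. The class II genes H2-Ab1 and Cd74 stood at 213, 469 and 346 CPM and at 979, 1601 and 1083 CPM, but Cd74 was found in only 42.0%, 31.4% and 29.5% of thinned cells, and B cells held 12949 to 14387 CPM of it. Cd7 stood at 24.1, 4.24 and 7.72 CPM in all cells and at 5.71, 3.94 and 5.76 CPM in the 744 cells with Lyz2, so its difference rested on cells poor in Lyz2. Transcription factors were mostly even: of 20 compared, 1 was higher and 1 lower in ending 2 than in ending 1. Spi1, which encodes the myeloid factor PU.1, stood at 509, 707 and 684 CPM.

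Some receptors that bring monocytes to sites of infection were higher in endings 2 and 3 than in ending 1. Of 17 compared migration and adhesion genes, 4 were higher in both comparisons and 1 was lower in each, with median log2 ratios of 0.01 and 0.24 over the list. The higher genes included the chemokine receptor Ccr1 and the formyl peptide receptors Fpr1 and Fpr2. Ccr1 stood at 37.2, 253 and 170 CPM, 6.81-fold higher in ending 2 than in ending 1 (5.31 to 8.85). Pecam1, an adhesion molecule of the vessel wall and leukocytes, was lower in ending 2 than in ending 1, at 25.7, 11.2 and 14.7 CPM. Cx3cr1, whose level rises as classical monocytes mature towards non-classical ones, stood at 396, 268 and 143 CPM and was 2.76-fold lower in ending 3 than in ending 1 (2.47 to 3.09). Non-classical markers did not move together: of 7 compared, Cx3cr1 alone was called lower and Eno3 alone higher in ending 3 than in ending 1. Their median log2 ratio was -0.13. Fpr1 stood at 2.74, 19.4 and 34.1 CPM, and Fpr2 at 23.5, 84.4 and 83.1 CPM, both lowest in ending 1. The share of neutrophils among filtered cells was also lowest in ending 1. The part of neutrophil RNA in these receptors and those of the next paragraph was not tested.

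Receptors for complement and microbial products were also lowest in ending 1 where they differed. Of 19 compared Fc, complement and scavenger receptors, 7 were higher in ending 2 and 8 in ending 3 than in ending 1, and none was lower. C5ar1, the receptor of complement fragment C5a, stood at 13.7, 85.4 and 91.9 CPM, and Fcgr4, an Fc receptor for IgG, at 13.1, 63.9 and 118 CPM. Fcgr4 was still 20.9-fold and 4.66-fold lower than in non-classical monocytes of endings 2 and 3. Of 21 microbe sensors, 6 were higher in ending 2 and 4 in ending 3, among them the mycobacterial lectin receptor Clec4e at 24.6, 113 and 129 CPM and the endotoxin receptor Tlr4 at 5.47, 15.1 and 13.9 CPM. None of the 6 NADPH oxidase genes differed 2-fold, and Cybb, its membrane subunit, stood at 1831, 1389 and 1337 CPM.

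The feedback gene Socs3 and part of the glucocorticoid-induced genes were lowest in ending 1. Socs3, an inhibitor of cytokine signalling through STAT3, stood at 18.6, 214 and 189 CPM and was found in 23 of 176, 225 of 302 and 215 of 277 cells. It was 11.5-fold higher in ending 2 than in ending 1 (8.14 to 16.7) and 10.2-fold higher in ending 3 than in ending 1 (7.22 to 14.8). Non-classical monocytes of the same libraries showed 59.8, 207 and 225 CPM. Of 16 compared glucocorticoid-induced genes, 7 were higher in ending 2 than in ending 1 (Ddit4, Dusp1, Fkbp5, Il1r2, Klf9, Mt1 and Per1), 4 were higher in ending 3, and none was lower in either. Fkbp5, a chaperone that limits the glucocorticoid receptor, stood at 6.02, 34.2 and 41.3 CPM. Ddit4, an inhibitor of mTOR signalling, stood at 5.47, 31.2 and 29.1 CPM. In B cells of the same libraries Ddit4 stood at 10.0, 49.3 and 46.5 CPM, above the classical monocytes in every ending, and the part of free RNA in its difference was not tested. Mt1, a metal-binding metallothionein, stood at 7.66, 32.1 and 80.9 CPM. Il1r2, the decoy receptor for interleukin-1, had 2, 45 and 202 UMIs, or 1.09, 13.6 and 50.3 CPM. Tsc22d3, which encodes GILZ and is a standard glucocorticoid target, was at 201, 334 and 253 CPM and did not reach 2-fold. The whole glucocorticoid-induced list summed to 2012, 2491 and 2336 CPM in classical monocytes, again lowest in ending 1. B cells (1046, 1894 and 1768 CPM) and non-classical monocytes (1995, 2978 and 2509 CPM) were lowest in ending 1 as well. Neutrophils had 6040, 7372.5 and 6017 CPM. Of 7 compared clock genes, Per1 was higher in ending 2 than in ending 1, and Cry1 and Bhlhe40 were higher in ending 3.

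**Figure D4:**
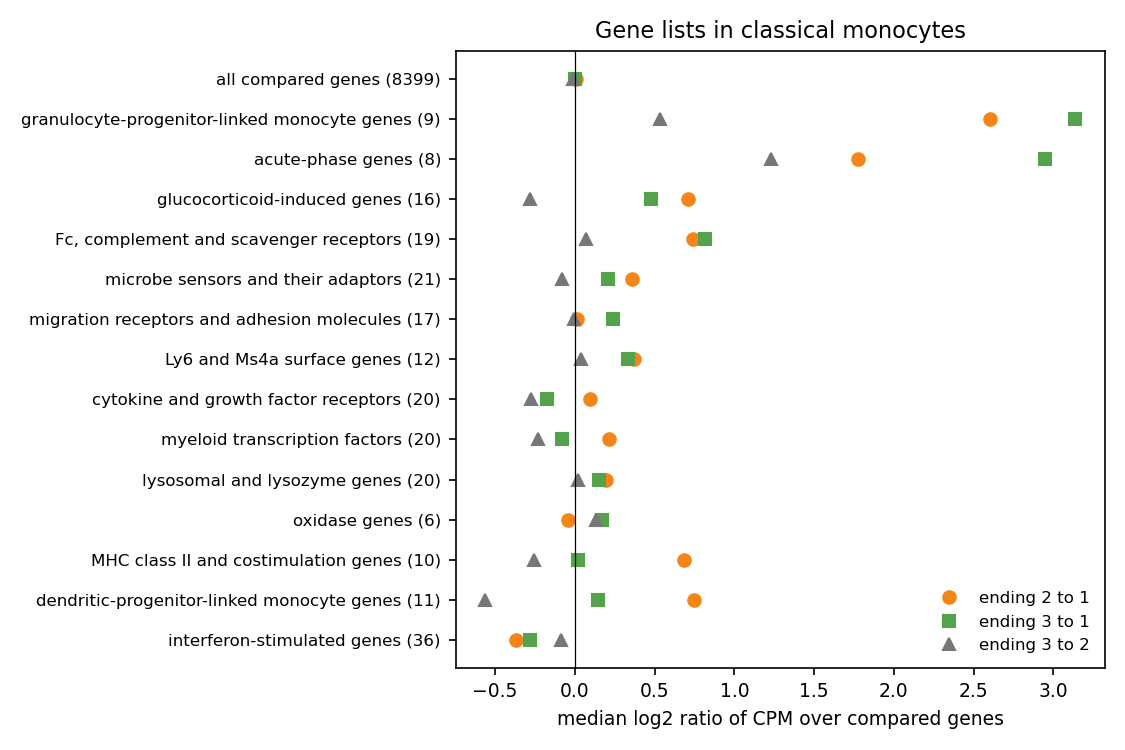
Median log2 ratio of CPM (x axis) over the compared genes of each list, whose number stands in brackets, for endings 2 to 1 (circles), 3 to 1 (squares) and 3 to 2 (triangles). All 8399 compared genes had medians near 0, the granulocyte-progenitor-linked list 2.61 and 3.14 against ending 1, and the interferon-stimulated list -0.37 and -0.28.

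Some interferon-stimulated genes were higher in ending 1, while the summed list was lowest there. Of 36 compared, 10 were lower and 2 higher in ending 2 than in ending 1, and 9 were lower and 2 higher in ending 3 than in ending 1. Ifit3, an antiviral protein with tetratricopeptide repeats, stood at 127, 14.8 and 15.9 CPM, 8.60-fold lower in ending 2 than in ending 1 (6.29 to 12.0). Rsad2, the antiviral enzyme viperin, stood at 90.3, 13.6 and 11.2 CPM. These levels came from few cells: Ifit3 was found in 33 of 176, 17 of 302 and 28 of 277 cells, and in 9.77%, 2.41% and 2.18% of thinned cells. B cells had 2.16%, 4.09% and 5.76% for Ifit3, which B cells can also express, so their share is not a measure of free RNA for this gene. Cxcl10, a chemokine induced by interferon, stood at 81.0, 35.1 and 1.49 CPM, but 1 cell in each ending held 37.8%, 78.4% and 50% of its UMIs. Other members of the list did not reach 2-fold: Ifitm3, a membrane barrier to virus entry, stood at 4366, 4755 and 4509 CPM, and Irf7 at 144, 114 and 132 CPM. The whole list summed to 11871, 13086 and 12449 CPM in classical monocytes. It summed to 7215, 8306 and 9839 CPM in non-classical monocytes, and to 1806, 2096 and 2782 CPM in B cells. Neutrophils had 5960, 12086 and 16846 CPM. Each of these classes was thus lowest in ending 1.

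The promoters of Ifit3 and Rsad2 are shown for 2 antiviral genes that were higher in ending 1, chosen after their values were seen. Capitals mark 2 copies of TTTC set apart by any 2 bases, on either strand, which is the core of the interferon-stimulated response element. They come from the same table and build. Ifit3 is on the plus strand with its promoter at chr19:34583279-34583578, and Rsad2 on the minus strand at chr12:26456403-26456702.
Ifit3: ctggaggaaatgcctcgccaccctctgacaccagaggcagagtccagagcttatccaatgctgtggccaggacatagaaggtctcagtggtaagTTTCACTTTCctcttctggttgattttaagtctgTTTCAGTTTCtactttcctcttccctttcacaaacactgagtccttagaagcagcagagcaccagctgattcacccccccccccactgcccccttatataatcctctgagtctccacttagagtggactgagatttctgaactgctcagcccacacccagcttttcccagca
Rsad2: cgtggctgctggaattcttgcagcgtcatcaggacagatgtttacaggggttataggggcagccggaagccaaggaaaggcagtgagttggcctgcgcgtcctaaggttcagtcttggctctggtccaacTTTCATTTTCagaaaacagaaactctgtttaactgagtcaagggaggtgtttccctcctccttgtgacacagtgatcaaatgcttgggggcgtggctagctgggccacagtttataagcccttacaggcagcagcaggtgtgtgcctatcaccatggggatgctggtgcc
Ifit3 holds 2 matches, 156 and 122 bases before the start, and Rsad2 holds 1, 120 bases before it. The motif was in 1131 of 32851 promoters (3.44%) and in 16 of 28 interferon-stimulated genes with a promoter in the table.

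Cytokine and chemokine genes differed in both directions. Of 12 compared, Il1b, Il1r2 and Arg2 were higher and Ccl2, Cxcl10 and Il15 lower in ending 2 than in ending 1. Il1b, encoding interleukin-1 beta, stood at 56.4, 193 and 105 CPM, against 2529, 2830 and 1227 CPM in neutrophils and 8.97, 45.6 and 9.28 CPM in B cells. Il6 had 0 UMIs over the 755 cells, and Tnf had 11, 18 and 16 UMIs. Ccl9, a chemokine abundant in these cells, was even at 609, 603 and 619 CPM. The lower Ccl2 rested on the connective tissue-like cell: all cells gave 43.2, 19.4 and 9.96 CPM, and the 744 cells with Lyz2 gave 7.42, 19.4 and 10.0 CPM. The metabolic gene Lpl, lipoprotein lipase, was highest in ending 1 at 165, 38.1 and 17.7 CPM, 9.32-fold lower in ending 3 (7.17 to 12.2), and was found in 76 of the 176 cells of ending 1.

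Coagulation and matrix genes differed in both directions. Of 12 compared, 4 were higher and 2 lower in ending 2 than in ending 1, and 5 were higher and 3 lower in ending 3. F10, coagulation factor X, stood at 71.1, 150 and 265 CPM, and Tgfbi, a matrix protein that binds integrins, at 485, 791 and 1039.6 CPM. Thrombomodulin, encoded by Thbd, was among the lower genes, and its direction turned without its top cell. Of 12 compared Ly6 and Ms4a surface genes, Ly6a, Ms4a4a, Ms4a6d and Ms4a8a were higher than in ending 1 in both comparisons, and none was lower. Ms4a6d stood at 134, 439 and 449 CPM. Of 6 compared S100 genes, S100a11 alone was called, at 527, 898 and 1526 CPM. Among 16 stress genes (immediate early and heat shock), 4 were higher in ending 2 than in ending 1, including the endoplasmic reticulum chaperone Hspa5 at 213, 563 and 336 CPM. In ending 3, 1 was higher and 2 (Egr1 and Hspa1b) lower than in ending 1, and 3 (Egr1, Hspa1a and Hspa1b) were lower than in ending 2. Lysosomal genes were mostly even, with 1 of 20 called higher in ending 2 and 1 higher and 1 lower in ending 3. The proliferation marker Mki67 stood at 2.74, 2.42 and 4.23 CPM.

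The 20 genes furthest apart between their highest and lowest ending included 8 that came from the 1 connective tissue-like cell of ending 1, such as Ptn, Igfbp5, Dcn and Sparc. Nkg7, Gzma and Ccl5 were also among them. In the 744 cells with Lyz2 these 3 were at 12.0, 1.82 and 12.3 CPM, at 18.3, 6.06 and 39.1 CPM and at 50.8, 11.8 and 21.8 CPM. The remaining 9 (Saa3, Lrg1, Wfdc21, Lcn2, Cxcl10, C1qb, Aldh1l1, Il1r2 and Prtn3) stayed among the first 20 when only the 744 cells were used. Aldh1l1, an enzyme of folate metabolism, had 0, 3 and 123 UMIs, the last over 89 cells. It also stood at 73.3 CPM in non-classical monocytes, 20.9 CPM in neutrophils and 6.61 CPM in B cells of ending 3. In these classes of the other endings it stood at 0.908 CPM or less. Aldh1l1 was thus highest in ending 3 in each of the classes given here, and the part of free RNA was not tested. C1qb, a chain of complement C1q typical of tissue macrophages, stood at 1.64, 42.7 and 95.1 CPM but came from 1, 13 and 31 cells. The macrophage markers Timd4, Vsig4 and Marco were at 0 in every ending. Igfbp6, a binding protein of insulin-like growth factor, depended wholly on the choice of cells: its 398 UMIs in ending 1 lay in 1 cell, and the 744 cells gave 0, 60.0 and 73.4 CPM.

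Against non-classical monocytes of the same library, where preparation is shared, 110 of 8816 compared genes were higher in classical monocytes in all 3 endings (1.25%) and 310 were lower (3.52%). With TMM scaling in edgeR, which moves the log2 ratio by 0.14, 0.25 and 0.13, the counts were 163 and 233. Both groups were chosen by measured UMIs, so these differences are a description. The 24 non-classical cells of ending 2 limit the precision there.

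The 10 genes highest by the rule for naming were Mmp8, Ly6c2, Chil3, Ms4a8a, Capg, Clec4a2, Wfdc17, Lcn2, Fos and Ms4a4c. Ly6c2 stood at 1272, 791 and 1138 CPM in classical and at 23.9, 0 and 131 CPM in non-classical monocytes, which is 53.2-fold, at least 39.4-fold and 8.70-fold higher. Capg, a protein that caps actin filaments, was 25.8-fold, 20.4-fold and 6.16-fold higher. The C-type lectin receptor Clec4a2 was 12.0-fold, 9.07-fold and 6.59-fold higher and the immediate early factor Fos 13.8-fold, 7.14-fold and 5.04-fold higher. In ending 3 non-classical monocytes held 1259 CPM of Chil3 against 80.1 and 187 CPM in endings 1 and 2, so the ratio was smallest there, at 5.61.

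The 10 genes lowest against non-classical monocytes were Fabp4, Slc12a2, G0s2, Eno3, Bcl2a1b, Itgax, Cd36, Tgm2, Dusp16 and S1pr5. Fabp4, a fatty acid carrier, stood at 2.19, 6.05 and 5.73 CPM in classical and 385, 295 and 264 CPM in non-classical monocytes. The scavenger receptor Cd36 was 40.4-fold, 36.5-fold and 18.0-fold lower, and the integrin gene Itgax, which encodes CD11c, stood at 4.92, 0.605 and 9.21 CPM against 139, 134 and 176 CPM. The level of Itgax in ending 2 rests on 2 UMIs. Nr4a1, the factor non-classical monocytes depend on, stood at 65.1, 56.0 and 72.9 CPM in classical and 581, 569 and 542 CPM in non-classical monocytes, and was even across endings in both. Csf1r, the receptor of macrophage colony-stimulating factor, was 2.28-fold, 1.87-fold and 2.28-fold lower in classical monocytes.

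**Figure D5:**
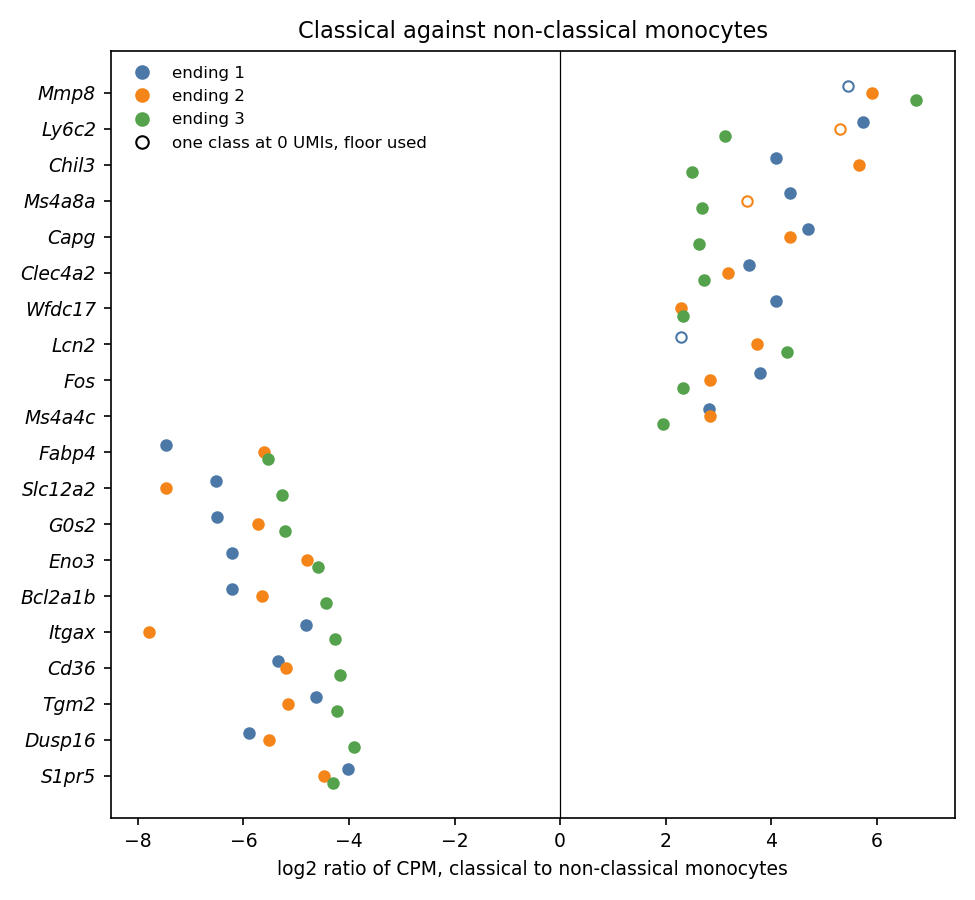
Log2 ratio of CPM in classical to non-classical monocytes (x axis) for the 10 genes highest and the 10 lowest by the rule for naming, in endings 1 (blue), 2 (orange) and 3 (green). Open circles use the 3-UMI floor where a class had 0 UMIs; the points for Ly6c2, at 53.2-fold, at least 39.4-fold and 8.70-fold, lie closest to 0 in ending 3.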

How the data were processed

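Blood leukocytes of pooled mice were measured by droplet RNA sequencing in 3 libraries. The values are raw UMI counts per gene and barcode as deposited, 31053 genes by 22204 barcodes, in 1 matrix written by Cell Ranger 6.0.2 per the file headers. Per the submitters' processing notes the build was GRCm38, and the tools included Cell Ranger 4.0.0, Trimmomatic 0.39, R 4.0.2 and Seurat 3.0. Which Cell Ranger version set the counts is not settled. The cell calling settings are not stated. No deposited column was left unused. The members and the gene lists were chosen with earlier results of these data known.

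Here, counts were summed over the cells of a class and ending and divided by their total (CPM). Levels of different genes were not adjusted for length, which 3′ counting does not require. Counting intervals are exact, at 95%: Poisson for sums, Clopper-Pearson for shares, conditional binomial for ratios. Gene counts at 0 were set at a floor of 3 UMIs. Thinning drew 3000 UMIs per cell once with a fixed seed. Genes named between endings were the 20 that reached 50 UMIs and 30 CPM in some ending and had the largest bound nearest 0 of the log2 ratio of highest to lowest ending. Against non-classical monocytes the 10 highest and 10 lowest were named by the same bound over all endings, and the 10 most abundant genes and list members were also named. Haemoglobin, mitochondrial, ribosomal, immunoglobulin and receptor segment genes, Xist, Y genes, unnamed models and genes of the rule were left out. The list genes Ahsp, Clec7a, Sting1 and Mx2 were not analysed here. Python 3.11.15, numpy 2.4.6, scipy 1.17.1, scanpy 1.11.5 and edgeR 4.0.16 were used. The calls were also run on Poisson counts simulated from pooled proportions. That simulation holds no variation between cells or libraries, so it cannot show how such variation affects the calls. Alternatives were other limits of the rule, scaling, gene minimums and leaving out doublets by Scrublet or single cells. Some items are not reported here.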

Additional observations from a re-analysis of the deposited data

How the results depend on the processing

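No paired analysis was possible because each group has 1 library and no ending is tied to a group. The share of classical monocytes moved with the limits of the rule. With a marker sum of 5 UMIs it was 2.96% in ending 1 and 5.57% in ending 3, with a sum of 0.1% of UMIs 2.92% and 5.43%, and with a sum of 20 UMIs 4.20% in ending 3. With at most 5% mitochondrial RNA it was 9.21%, 6.53% and 7.07%, which puts ending 1 highest, and filtered cells there numbered 1737 in place of 7122. Gene minimums of 1 and 200 UMIs gave 1004 and 223 called genes between endings 2 and 1, 1106 and 247 between 3 and 1, and 381 and 57 between 3 and 2, over other numbers of compared genes. With a marker sum of 20 UMIs the genes higher and lower than in non-classical monocytes numbered 46 and 139, where 33, 3 and 40 non-classical cells remained. The other 84 of 100 recomputed shares and counts stayed within their interval or within 1.5-fold. Ccl2 between endings 1 and 3 turned from higher to lower in ending 1, with log2 ratios of -0.56 at 5% mitochondrial RNA, -0.43 in cells with at least 20 Lyz2 UMIs and -0.16 without each gene's top cell. In the same 3 settings Igfbp6 between endings 1 and 2 gave -5.08, -5.13 and -5.14, and Thbd between endings 1 and 3 gave -0.48, -0.36 and -0.36. Without barcodes that held killer cell genes or haemoglobin, Hba-a2 and Hbb-bs between endings 2 and 3 gave -0.071 and -0.27. Klrd1 between endings 1 and 2 gave -0.047 with a marker sum of 20 UMIs. Doublet calling marked 7 of 7122 cells (0.0983%) in ending 1 and so did not work there, and marked 0, 2 and 3 classical monocytes. The alternatives without Vcan, without killer cell or haemoglobin barcodes and with the Lyz2 limit were chosen after the data were seen. Depth limits genes of few UMIs in ending 1, such as Lrg1 with 3.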
